A study of Homo sapiens with 12 samples.

Results

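The replication-dependent histone genes are the clustered genes that encode linker histone H1 and the core histones H2A, H2B, H3 and H4. They were taken from the table of gene counts by their symbols, as the clustered H1 genes (H1-1 to H1-6) and every gene named H2AC, H2BC, H3C or H4C with a number. This gave 67 of 60623 genes: 6 for H1, 15 for H2A, 18 for H2B, 13 for H3 and 15 for H4. No expression value entered the choice. Of these genes, 55 lie on chromosome 6, 11 on chromosome 1 and 1 (H4C16) on chromosome 12. Counts came from 12 libraries of COLO320DM and SW480 cells, 2 established lines from human colorectal cancers. Cells of each line received 10 µg of either pCMV6-HKDC1, a plasmid that drives the hexokinase gene HKDC1 from a CMV promoter, or the empty vector pCMV6-Entry, for 24 h with Lipofectamine 2000. Each of the 4 groups has 3 libraries, and no untransfected cells were analysed here. The protocols do not say that the replicates were separate cultures, so p-values measure the spread between these libraries, which may be technical.

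Replication-dependent histone genes are transcribed in S phase, when new DNA has to be packed into nucleosomes. Their main mRNAs are the only ones of animal cells known to end without a poly-A tail. They end at a conserved stem-loop that is bound by SLBP and cut with the help of the U7 snRNP, of which LSM10 and LSM11 are parts and ZNF473 a partner. Some of these genes also give longer transcripts that run past the stem-loop and end in a poly-A tail. The libraries were made from RNA selected on poly-T beads, so the counts report the histone RNA that such beads retain and not the whole histone mRNA of the cells. Fewer cells in S phase and less histone RNA per cell cannot be told apart in such bulk samples.

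The stem-loop was searched in the GENCODE 29 transcripts of 65 members as the 16 letters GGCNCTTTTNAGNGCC, on the transcript strand. It was found in 28 members and in 12 other genes, together 0.068% of 58676 genes with a transcript. The 5 forms are shown because they mark where the main histone mRNA ends, and because the members differ in whether annotation continues past them. Capitals mark the 6 bases of each arm of the stem, and the 4 bases in lower case are the loop.
H2BC21: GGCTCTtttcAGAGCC
H4C8: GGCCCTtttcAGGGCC
H2BC5: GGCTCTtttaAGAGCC
H4C14 and H4C15: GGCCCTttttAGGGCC
H2AC11: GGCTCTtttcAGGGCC
The form of H2BC21 was the most common, with 15 members from the H2A, H2B and H3 families. The form of H4C8 stood in 5 members and that of H4C14 and H4C15 in 3, all of them H4 genes. The form of H2BC5 stood in 4 members (H2BC4, H2BC5, H2BC7 and H3C8), and that of H2AC11 in this gene alone. On GRCh38, the stem-loop of H2BC21 lies at chr1:149886188-149886203 on the minus strand and is followed by 1729 annotated bases.

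Where annotation ends went together with whether a gene was measured. Copies whose transcripts are at least 98% identical over 90% of the shorter one were treated as 1 signal. These were H4C14 with H4C15, H3C14 with H3C15, H4C11 with H4C12 (each 100% identical) and H2AC13 with H2AC14 (98.2%), which left 63 signals. In all, 46 genes, or 42 signals, passed the filter on low counts. All 20 signals annotated at least 100 bases past the stem-loop passed, against 13 of 30 that are annotated only to about the stop codon. The median level over 12 libraries was 0.734 CPM (counts scaled by library size with TMM factors) per kb of exon in the first class and 0.186 in the second. It was 0.912 for 6 signals annotated to the stem-loop (4 passed), and 0.55 for 5 with a longer transcript without it (4 passed). For 2 signals with no matched transcript it was 0.22 (1 passed). The highest median was thus not that of the first class, and the highest single signal (29.7, H2BC12) was in the second. This is a description of the annotated gene models, since a read past the end of a short model is not counted for it. H2AC1, H2BC1 and H4C7 had 0 counts in all 12 libraries, and H1-1, H2BC3, H3C3, H1-6, H4C6 and H4C13 had 1 to 3 counts in all. A poly-A signal (AATAAA or ATTAAA) stood in the last 50 bases of a transcript of 21 members.

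In all 4 groups, replicate 1 stood apart from replicates 2 and 3 over all genes, and counts of calls are given with and without it. Library totals were 33790733 to 45451279 counts, of which the members took 0.0139 to 0.0229% in COLO320DM and 0.00728 to 0.0113% in SW480. HKDC1 was at most 0.0238 CPM in COLO320DM with empty vector and 6580 to 9640 CPM with its plasmid. In SW480 it was 34.1 to 38.4 CPM and 12200 to 14300 CPM. Of 10 colon epithelial markers, 7 were higher and 1 (CDX2) was lower in SW480 with empty vector. In COLO320DM, EPCAM was 1.36 to 2.32 CPM, CDH1 at most 0.0926 CPM, the keratin KRT19 at most 0.143 CPM and CDX1 0 CPM. The epithelial keratins KRT8 (112 to 153 CPM) and KRT18 (78.2 to 99.5 CPM) were well measured there, though lower than in SW480, and CDX2 was 1370 to 1560 CPM. The epithelial markers of that line were thus mixed. Of 9 markers of other cell types 6 were tested, with 2 higher (VWF and ALB) and 3 lower (PTPRC, COL1A1 and COL3A1) in SW480. COL3A1 was 27.1 to 47.1 CPM in COLO320DM and at most 0.0286 CPM in SW480. Among the leukocyte genes, PTPRC was 29 to 38.3 CPM in COLO320DM and at most 0.066 CPM in SW480, CD3E was at most 0.044 CPM in any library, and CD79A overlapped between the lines (0.122 to 0.436 CPM over all libraries). RNAs that carry no poly-A tail, such as RN7SK, were still counted: 24 of them summed to 20.1 to 22.8 CPM in COLO320DM and 25.1 to 32 CPM in SW480. What share of such RNA passed the selection cannot be told, since no unselected libraries were analysed here. RN7SK itself, a regulator of transcription elongation, was 1.23 to 3.23 CPM over all libraries.

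The summed CPM of the members, with copies of 1 signal entered once as their mean, was higher in COLO320DM. The shares of library totals given above count every copy and are therefore larger. With empty vector the sums were 111, 157 and 160 CPM in COLO320DM against 81.1, 97.8 and 95.4 CPM in SW480. With the HKDC1 plasmid they were 104, 141 and 132 CPM in COLO320DM against 72.5, 88.1 and 90.7 CPM in SW480. Every COLO320DM library thus lay above every SW480 library. Most of the gap was the H4C14/H4C15 signal, which made up 27.8 to 34.3% of the sum in COLO320DM and 7.17 to 9.96% in SW480. Without it the sums were 75.3 to 105 CPM in COLO320DM and 67.3 to 88.1 CPM in SW480, and these ranges overlap.

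**Figure D1:**
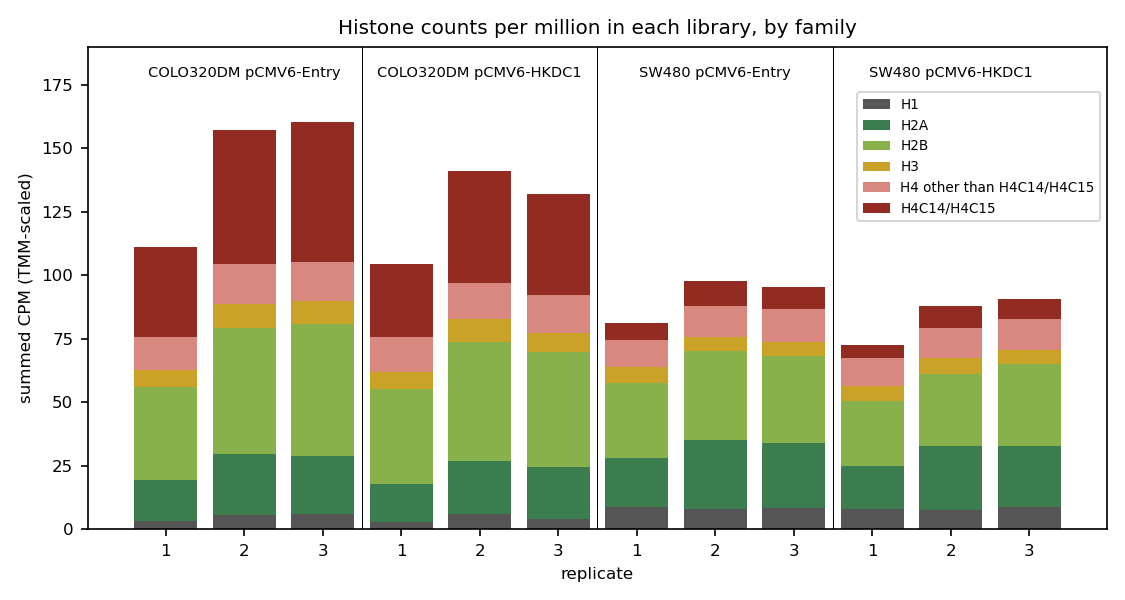
Stacked bars show the summed TMM-scaled CPM of the histone members in each of the 12 libraries (y axis), by family and with H4C14/H4C15 apart, with replicates 1 to 3 of each group along the x axis. Copies of 1 signal enter once, as their mean. COLO320DM bars reach 104 to 160 CPM and SW480 bars 72.5 to 97.8 CPM, and the H4C14/H4C15 part is the clearest difference to be seen between the lines.

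Within the families, H4 differed most between the lines in its sum, taken in the same way. H4 genes summed to 62.6 ± 12 CPM in COLO320DM and 20.2 ± 2.55 CPM in SW480 (SD, n = 3, empty vector). H2B genes summed to 46.1 ± 8.11 and 32.9 ± 2.93 CPM. H3 genes were low in both lines, at 8.39 ± 1.7 and 5.97 ± 0.378 CPM. H2A genes summed to 21 ± 4.45 and 24.1 ± 4.2 CPM, and these groups overlap. The sum of the linker H1 genes went the other way, with 4.94 ± 1.37 CPM in COLO320DM and 8.18 ± 0.357 CPM in SW480. The core histones form the nucleosome's protein core in equal amounts, while H1 binds the DNA between nucleosomes.

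Per kb of exon, and with copies entered as their mean, H2BC12 was the most abundant signal, with a mean of 29.7 CPM per kb over the 12 libraries. How reads that match more than 1 copy were counted is not known. If they were split between the copies, the mean understates H4C14/H4C15, and its order against H2BC12 in COLO320DM could change. H4C14/H4C15 followed with 13.3, H2AC25 with 12.2, H1-2 with 8.77, H4C9 with 6.53 and H2BC21 with 5.37 CPM per kb. H4C11/H4C12 (3.88), H2BC5 (3.57), H2AC6 (3.2) and H2BC11 (1.93) completed the top 10. The median over all 63 signals was 0.465 CPM per kb, so a few genes held most of the signal. The order depends on the length used, because the gene models differ: H2BC12 is annotated only to about its stop codon, while H4C14 has 1876 bases of exon. With the CPM divided by coding length instead, H4C14/H4C15 came first at 81.3 CPM per kb. H2BC21 (30.9), H2BC12 (29.7), H2AC25 (27.9) and H4C9 (27.1) followed. Reads from the whole gene model are still counted in these values, so they are raised for genes with exon bases beyond the coding sequence. In COLO320DM with empty vector, H2BC12 (33.4 ± 2.38 CPM per kb) and H4C14/H4C15 (25.4 ± 5.57) stood above the rest. In SW480 with empty vector, H2AC25 (13 ± 4.54) and H1-2 (11.2 ± 0.646) were the next below H2BC12 (25.9 ± 2.47), and they do not differ beyond their spread (SD, n = 3 each).

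**Figure D2:**
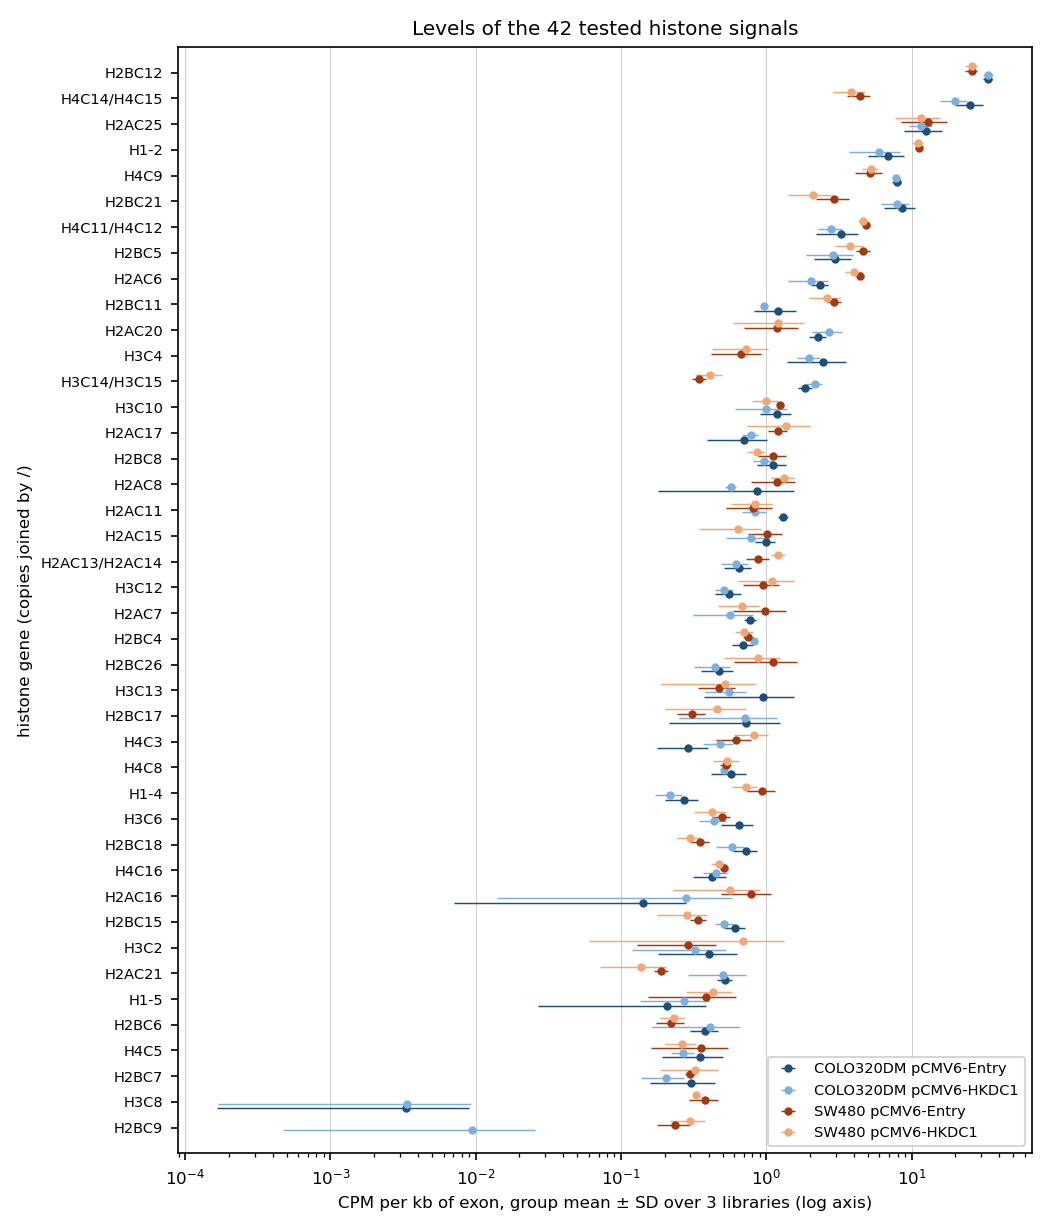
Points show the mean level in CPM per kb of exon (log x axis) of each of the 42 tested signals (y axis) in the 4 groups, with bars for the SD over 3 libraries, cut short where they would reach 0. With copies entered as their mean, H2BC12 is highest in every group. H4C14/H4C15 and H3C14/H3C15 are higher in COLO320DM, and H3C8 and H2BC9 are near 0 in COLO320DM (H2BC9 with empty vector, at 0, has no point).

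The linker histone genes were unevenly measured. H1-2 had 3.02, 5.08 and 5.23 CPM in COLO320DM against 7.55, 6.73 and 7.23 CPM in SW480 with empty vector. Every SW480 library was above every COLO320DM library for this gene, also with the HKDC1 plasmid (2.63, 5.49 and 3.44 against 6.91, 6.48 and 7.73 CPM). H1-4 had 0.189, 0.262 and 0.162 CPM in COLO320DM against 0.545, 0.872 and 0.704 CPM in SW480 with empty vector. H1-5, with 0.0471 to 0.278 CPM and 0.132 to 0.441 CPM, overlapped between the lines. H1-3 had 32 counts over all 12 libraries and was not tested, nor were H1-1 and H1-6. In the edgeR comparison of the lines, H1-2 (log2 fold change 0.69, SE 0.25, adjusted p = 0.0236) and H1-4 (1.78, SE 0.33, adjusted p = 0.000299) were higher in SW480 with empty vector, and H1-5 was not called.

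The lines were then compared over all members, separately with each plasmid, so that different libraries are set against each other. The comparisons are not independent, since the estimate of the spread comes from all 12 libraries and same-numbered libraries share an offset. With empty vector, 11 of 42 signals were higher and 11 lower in SW480 (edgeR's quasi-likelihood test, Benjamini-Hochberg adjusted p under 0.05). Counted as genes, 24 of 46 were called, and over all 23684 genes tested 71.6% were (37.3% higher and 34.3% lower), so the members' share was below the background. With the HKDC1 plasmid, 11 signals were higher and 10 lower (23 of 46 genes, beside 70.8% of all genes, 37.4% higher and 33.5% lower). Calls in both comparisons were made for 9 signals on the higher side and 10 on the lower side. The former were H1-2, H1-4, H2AC6, H2AC13/H2AC14, H2BC9, H2BC11, H2BC26, H3C8 and H4C11/H4C12. The latter were H2AC20, H2AC21, H2BC12, H2BC15, H2BC18, H2BC21, H3C4, H3C14/H3C15, H4C9 and H4C14/H4C15. H2BC9 and H3C8 passed the filter on low counts only through SW480, with at most 2 and 1 counts in a COLO320DM library. H2AC21 passed only through COLO320DM, with 2 to 4 counts in each SW480 library. Such calls are for genes kept because of the line where they are high, and other low members can have passed in the same way. The median log2 fold change over the 46 genes was 0.02 with empty vector, against 0.04 for the HKDC1 libraries. Without replicate 1 of COLO320DM with empty vector, 5 signals in place of 11 were called higher with empty vector (H1-4, H2AC6, H2BC11, H2BC9 and H3C8), all of them among the 11, and the median was -0.16. Without replicate 1 in every group, 8 signals were higher and 13 lower with empty vector (79.3% of all genes called), and 11 each way in the HKDC1 libraries (78.5%). A copy pair was counted where either copy was called, and for H2AC13/H2AC14 this was H2AC14 alone (log2 fold change 1.37 against -0.06 for H2AC13 with empty vector). With the copies summed, this pair was not called with empty vector (0.35, edgeR adjusted p = 0.241) and was called in the HKDC1 libraries (0.86, edgeR adjusted p = 0.00931), while H4C11/H4C12 was called in both.

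The members that were lower in SW480 gathered in the chromosome 1 cluster from H2BC18 to H2AC21 (GRCh38 chr1:149782689-149888013). Of its 9 tested genes, 8 were lower in SW480 and none higher in each comparison. Over all genes, 34.3% were lower with empty vector and 33.5% with the HKDC1 plasmid. The median log2 fold change of the 9 genes was -1.54 for the empty vector libraries, against -1.92 for the HKDC1 libraries. These counts and medians take the copies H4C14 and H4C15, and H3C14 and H3C15, as separate genes. H3C13, the exception, had 7 to 27 counts in the COLO320DM libraries with empty vector. The H4C14/H4C15 signal, for histone H4, had 36, 53.6 and 55 CPM in COLO320DM against 6.69, 9.74 and 8.54 CPM in SW480 with empty vector. Its groups are far apart, and H4C14 had a log2 fold change of -2.52 (SE 0.24, adjusted p = 5.38e-07) and H4C15 of -2.55. The H3C14/H3C15 signal, for histone H3, had 2.7, 3.15 and 3.36 CPM in COLO320DM against 0.61, 0.504 and 0.605 CPM in SW480, with log2 fold changes of -2.37 and -2.45. H3C14 and H4C14 share 173 bases of exon on opposite strands, as do H3C15 and H4C15, so a part of their reads cannot be told apart if strand was not used. H2BC21 had 13.5, 20.6 and 22 CPM in COLO320DM against 4.62, 7.82 and 6.9 CPM in SW480, again with no overlap (log2 fold change -1.54, SE 0.28, adjusted p = 0.000227). H2AC20, which lies next to it, had 0.825, 0.81 and 1.02 CPM in COLO320DM against 0.675, 0.381 and 0.33 CPM in SW480 (-0.94), and H2AC21 was lower, with a log2 fold change of -1.43. In the HKDC1 libraries the largest lower values were those of H3C14 (-2.41), H4C15 (-2.40), H2BC21 (-1.92) and H2AC21 (-1.82), of this cluster, and H3C4 (-1.42).

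Genes of the same span that are not members moved with them. All 7 other genes tested inside the cluster were lower in SW480 in each comparison (median log2 fold change -2 with empty vector, and -2.09 for the HKDC1 libraries). They include BOLA1, a mitochondrial iron-sulfur protein gene that overlaps H2AC21, and the pseudogenes H2BC19P and H2BC20P. Among the 20 nearest genes in the table on each side, 31 were tested, of which 23 were lower and none higher with empty vector (median -1.58). With the HKDC1 plasmid, 24 were lower and 1 higher (median -1.56). The lower values in SW480 were therefore not limited to histone genes there, and what part the neighbourhood has in the members' difference was not tested. The other chromosome 1 pair, H2AC25 and H2BC26 near 228 Mb, did not share this pattern: H2BC26 was higher in SW480 (log2 fold change 1.23, SE 0.41, adjusted p = 0.0149), and H2AC25 was not called.

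On chromosome 6, 10 of 34 tested members were higher and 5 lower in SW480 with empty vector, beside 37.3% and 34.3% of all genes. In the HKDC1 libraries 10 were higher and 4 lower, beside 37.4% and 33.5% of all genes. The members' share called higher was thus not above that of all genes, and the counts by cluster are to be read against the same shares. In the largest cluster, from H2AC1 to H4C8 (559.5 kb), 6 of 18 tested members were higher and 1 (H3C4) lower, while 1 of 7 other tested genes inside it was higher and 5 were lower (median -1.19) with empty vector. H2AC6, an H2A gene with a long annotated 3′ end, had 3.32, 4.24 and 4.12 CPM in COLO320DM against 7.68, 7.6 and 6.95 CPM in SW480 (log2 fold change 0.93, SE 0.20, adjusted p = 0.00109). H3C4 had 0.518, 1.36 and 1.16 CPM in COLO320DM against 0.389, 0.191 and 0.242 CPM in SW480 (-1.87, SE 0.42), but it lies wholly within the exons of another gene of the same strand that was lower too. In the next cluster, from H2BC11 to H2AC12, members within 21.6 kb went both ways. H2BC11 rose from 0.731, 1.33 and 1.39 CPM to 2.49, 2.75 and 3.12 CPM (1.28, SE 0.26, adjusted p = 0.000543). H4C9 had 9.92, 9.77 and 11 CPM in COLO320DM against 5.19, 6.97 and 7.96 CPM in SW480 (-0.61, SE 0.16, adjusted p = 0.00347), and H2BC12 differed by a log2 fold change of only -0.37 (SE 0.12, adjusted p = 0.0151). H2AC16 was higher with empty vector (2.40, SE 0.78) on 80 counts over all libraries, and it was not called with the HKDC1 plasmid.

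**Figure D3:**
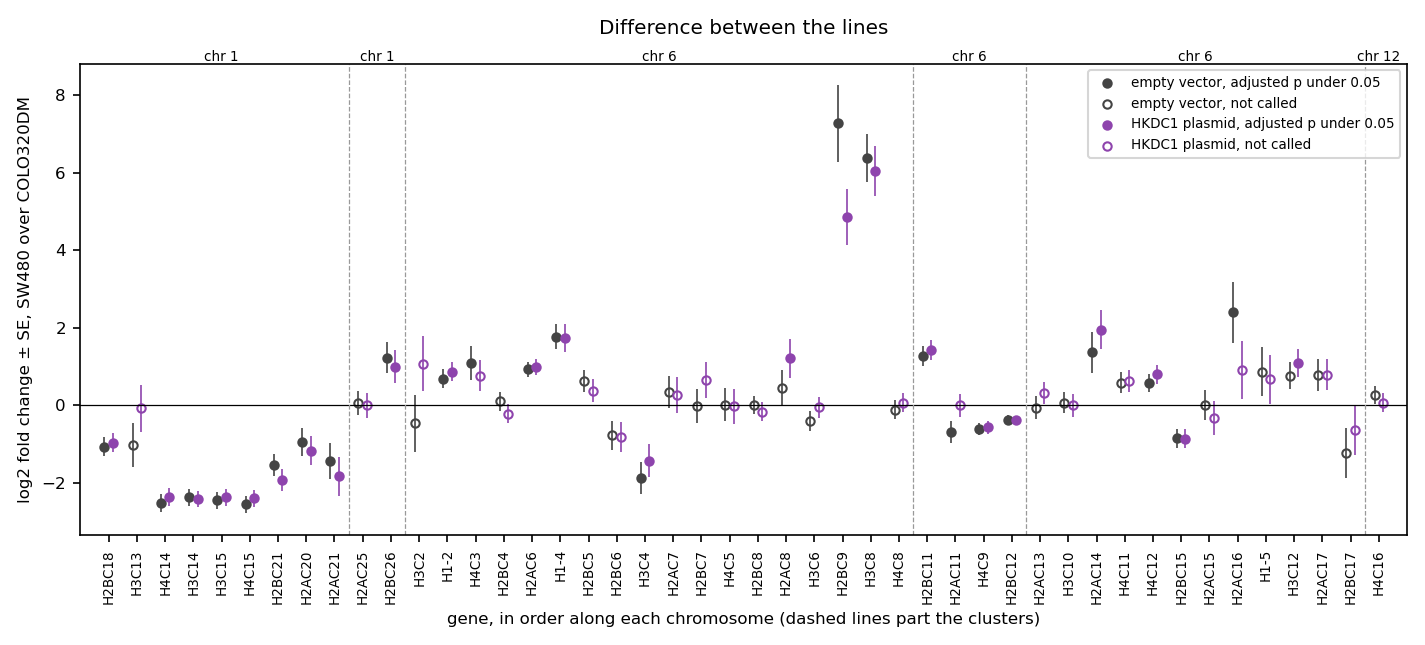
Each point is the log2 fold change of SW480 over COLO320DM (y axis, with SE) of 1 of the 46 tested member genes, in order along the chromosomes (x axis), with empty vector and with the HKDC1 plasmid, filled where the edgeR adjusted p was under 0.05. The first chromosome 1 cluster lies below 0, and H2BC9 and H3C8 lie at 4.85 to 7.27, fitted values that depend on how 0 counts are handled.

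The largest fold differences of the members between the lines were in a stretch of 23.2 kb at chr6:26250195-26273356 that was all but silent in COLO320DM. It holds the H3 genes H3C7 and H3C8 and the H2B genes H2BC9 and H2BC10. Over these 4 genes, the 6 COLO320DM libraries had 4 counts and the 6 SW480 libraries 358. H3C8 had 0.708 to 1.12 CPM in the SW480 libraries with empty vector, and 1 count in all 3 COLO320DM libraries. The ratio of its summed counts, each over the summed TMM-scaled library totals, was 117 (95% counting interval 20.6 to 4680) with empty vector, against 88.2 (15.4 to 3520) for the HKDC1 libraries. H2BC9 had 59 counts in SW480 and 0 in COLO320DM with empty vector, which makes it at least 20.8-fold higher on the same scale, against a floor of 3 counts over the group. With the HKDC1 plasmid its ratio was 34.1 (9.08 to 287), from 68 and 2 counts. H3C7 (5 and 13 counts) and H2BC10 (8 and 6 counts) were seen only in SW480 libraries, as was the pseudogene H2AC10P between them (10 and 15 counts), at numbers too low for a test of the 2 genes. This was not limited to the stretch: H3C11, in the cluster from H2BC13 to H2BC17, had 13 and 5 counts in SW480 and 0 in every COLO320DM library. These intervals and the floor cover counting error only.

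The stretch is bounded on one side by a gene that both lines express. H4C8, which lies 4.3 kb beyond H2BC10, had 0.919, 1.57 and 1.2 CPM in COLO320DM against 1.12, 1.25 and 1.06 CPM in SW480 with empty vector, and was not called in either comparison. On the other side the edge cannot be placed, since there lie H4C7, with 0 counts in every library, H4C6, with 1 count, and H1-3, with 18 counts in COLO320DM and 5 in SW480 with empty vector. The promoters of the 2 tested genes of the stretch and of H4C8 are shown because these neighbours differ in this way. They are the 250 bases before the RefSeq start on GRCh38.p14, 5′ to 3′ on the gene's strand. Capitals mark CCAAT on either strand and the octamer ATTTGCAT.
H2BC9 (chr6:26251364-26251613, plus strand): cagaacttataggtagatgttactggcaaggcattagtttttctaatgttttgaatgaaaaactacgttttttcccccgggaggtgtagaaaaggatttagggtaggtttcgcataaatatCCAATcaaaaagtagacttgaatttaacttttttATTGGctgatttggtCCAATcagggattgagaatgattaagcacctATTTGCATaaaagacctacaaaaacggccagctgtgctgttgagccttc
H3C8 (chr6:26271414-26271663, minus strand): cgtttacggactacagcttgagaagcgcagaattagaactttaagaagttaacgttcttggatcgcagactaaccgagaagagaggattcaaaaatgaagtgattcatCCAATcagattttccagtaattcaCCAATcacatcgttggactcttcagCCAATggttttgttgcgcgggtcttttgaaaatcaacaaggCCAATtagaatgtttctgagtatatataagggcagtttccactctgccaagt
H4C8 (chr6:26285535-26285784, minus strand): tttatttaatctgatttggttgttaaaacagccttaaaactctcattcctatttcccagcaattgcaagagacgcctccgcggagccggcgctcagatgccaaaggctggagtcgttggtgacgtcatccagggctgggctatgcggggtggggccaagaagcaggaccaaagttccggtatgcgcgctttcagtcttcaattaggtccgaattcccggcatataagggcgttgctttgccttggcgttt
The octamer, the binding motif of OCT1, stands in the H2BC9 promoter and in neither of the others, and CCAAT stands in those of H2BC9 and H3C8. RefSeq gave 66 promoters for 62 members, some with more than one start. Searched on both strands, the octamer stood in 75% of the H2B and 78.6% of the H2A promoters, in 7.7% of the H3 and 0% of the H4 promoters, and in 1.6% of 35116 promoters of this length. CCAAT stood in every H1, H2A, H2B and H3 promoter, in 23.1% of the H4 promoters and in 32% of all. AAACACA, the H1 box, stood in 100% of the H1 promoters, in none of the other families and in 4.8% of all. TATAAA stood in 65.2% of the members' promoters and 10.7% of all. TATAAA stood in 70% of the H2B and 69.2% of the H3 promoters, but in neither that of H2BC9 nor that of H3C8. Only these exact letters were searched, and near forms of them were not. A match is a description, not a binding site. These are reference sequences, not read from either line, and their part in the difference between the lines was not tested. The stretch shown for H3C8 lies wholly within the exon that is counted for this gene.

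Whether HKDC1 changed the histone genes was asked in each line. Without the pairing of replicates, no member was called in either line, where 0.00844% of all genes were called in COLO320DM and 0.0127% in SW480. DESeq2 and limma-voom called none in either line. At an unadjusted p under 0.05, edgeR gave 1 member in COLO320DM (H2AC11) and 0 in SW480, and DESeq2 and limma-voom likewise gave 1 and 0. Over all 23684 genes tested, edgeR gave 312 in COLO320DM and 356 in SW480. The median log2 fold change of the 46 genes was -0.13 in COLO320DM and -0.08 in SW480, with 32 and 26 genes below 0. The precision of a single gene was limited, with a median SE of 0.30 and 0.29 on the log2 scale. The sums given above overlapped between the plasmids in each line, but the HKDC1 library had the lower sum in 3 of 3 pairs of COLO320DM and in 3 of 3 pairs of SW480, which was not tested. The median in COLO320DM moved with single empty vector libraries: it was -0.31 without replicate 1 and -0.04 without replicate 2.

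With the replicate number as a block, 1 signal was called lower in each line and none higher, beside 0.076% of all genes called in COLO320DM and 0.76% in SW480. In COLO320DM this was H4C14/H4C15, beside 0.0591% of all genes called lower. The HKDC1 libraries had 29, 44.2 and 40 CPM and the empty vector libraries 36, 53.6 and 55 CPM, in the order of their numbers. The groups overlap, but the HKDC1 library was the lower one in 3 of 3 pairs (H4C14: log2 fold change -0.35, SE 0.07, edgeR adjusted p = 0.0257). This is the signal that also separated the lines most in amount. In SW480, where 0.595% of all genes were called lower, it was H2BC21, an H2B gene of the same cluster. It had 2.87, 5.73 and 5.15 CPM with the HKDC1 plasmid and 4.62, 7.82 and 6.9 CPM with empty vector, overlapping again but lower in 3 of 3 pairs (log2 fold change -0.50, SE 0.11, edgeR adjusted p = 0.0138). Neither call was stable to leaving out a pair: that of H4C14/H4C15 was lost without any of the 3 pairs, and that of H2BC21 without pair 2 or pair 3. Without replicate 1 in every group and without a block, H2BC21 was called in SW480 (-0.45, edgeR adjusted p = 0.0264, beside 3.03% of all genes), and H4C14 was not called in COLO320DM (-0.37, edgeR adjusted p = 0.111, beside 0.0337%).

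The lines were not shown to differ in these effects. In the other line, H4C14 had a log2 fold change of -0.21 (SE 0.09) in SW480 and H2BC21 of -0.10 (SE 0.09) in COLO320DM, both with the block and neither called. The difference between the lines was 0.15 (SE 0.12, edgeR adjusted p = 0.801) for H4C14 and -0.40 (SE 0.14, edgeR adjusted p = 0.443) for H2BC21. edgeR called no member for this difference with or without the block, where 0.0422% and 0.00844% of all genes were called. At an unadjusted p under 0.05 it gave 2 member genes with the block and 0 without it, beside 1802 and 379 of all 23684 genes tested. DESeq2 and limma-voom called 0 members.

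Other members were not called at the adjusted threshold. In COLO320DM, H2AC11 had 2.66, 3.1 and 3.03 CPM with empty vector and 1.73, 2.3 and 1.62 CPM with the HKDC1 plasmid, and these groups do not overlap. Its log2 fold change was -0.64 (SE 0.28, edgeR adjusted p = 1, and 0.266 with the block). In SW480 the same gene had 1.17, 1.88 and 2.42 CPM and 1.19, 2.15 and 2.29 CPM, with no such shift. H3C6 had a log2 fold change of -0.56 in COLO320DM and H4C3 of 0.71, and in SW480 H2AC15 had -0.67, H2BC8 -0.38 and H3C2 1.21. The H3C14/H3C15 signal was on the higher side in both lines (H3C14: 0.28, SE 0.18, in COLO320DM, and 0.24, SE 0.23, in SW480). H2AC14 had 0.66 (SE 0.45) in SW480 and its copy H2AC13 0.28. The value of H3C2 rests on replicate 1 of SW480 with HKDC1, which had 0.711 CPM against 0.22 and 0.115 CPM in the other libraries of its group, and it was 0.20 without that library. For H2BC9 in COLO320DM no fold is given, since its 6 libraries hold 2 counts.

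**Figure D4:**
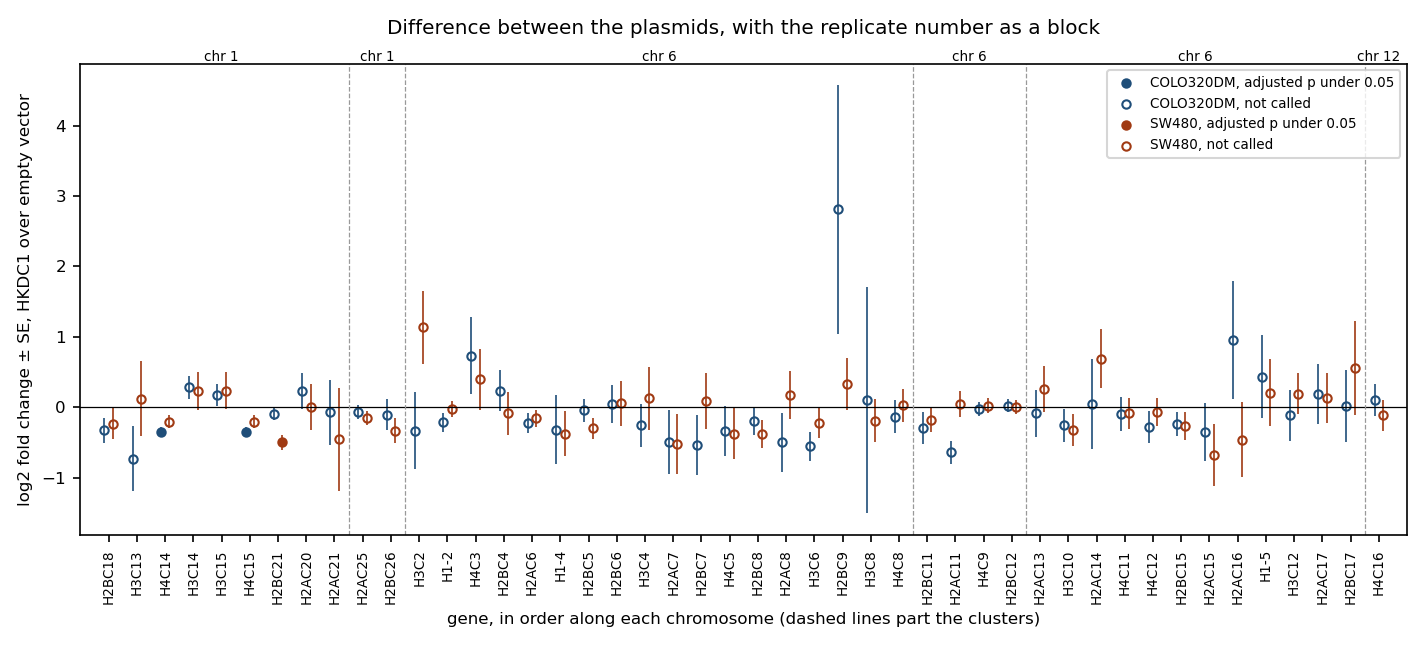
Each point is the log2 fold change of HKDC1 plasmid over empty vector (y axis, with SE) of 1 of the 46 tested member genes in COLO320DM and in SW480, from the fit with the replicate number as a block, in order along the chromosomes (x axis). Filled points, with an adjusted p under 0.05, are H4C14 and H4C15 in COLO320DM and H2BC21 in SW480, and the wide bars of H2BC9 and H3C8 in COLO320DM stand for 4 counts in all.

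Several members followed the offset of replicate 1. Counts of replicates 2 and 3 differed by a chi-squared of 3.18 to 10.11 per degree of freedom over genes, and those of replicate 1 and either of the others by 24.47 to 82.86. Of 42 signals, 8 were lowest in replicate 1 in all 4 groups: H2AC25, H2BC6, H2BC11, H2BC21, H2BC26, H3C6, H4C14/H4C15 and H4C16. None was highest there in all 4 groups. Over all genes tested, 11.4% were lowest and 12.1% highest in replicate 1 in all groups. H2AC25 had 7.45 CPM in replicate 1 and 13.2 and 12.8 CPM in the others in COLO320DM with empty vector, and 6.98 against 14.3 and 13.7 CPM in SW480. With the HKDC1 plasmid it had 8.44 against 10.9 and 12.1 CPM, and 6.37 against 13.3 and 11.8 CPM. H2BC12 and H4C9, in contrast, differed little there in COLO320DM, where the mean of replicates 2 and 3 was -0.18 to 0.13 log2 units from replicate 1. In SW480 this was 0.52 and 0.3 for H4C9, with empty vector and with the HKDC1 plasmid, and 0.19 and 0.08 for H2BC12. The lines were not alike: in COLO320DM with empty vector 30 of 42 signals were lowest in replicate 1 (40.5% of all genes), and in SW480 with empty vector 15 were (43.2% of all genes).

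**Figure D5:**
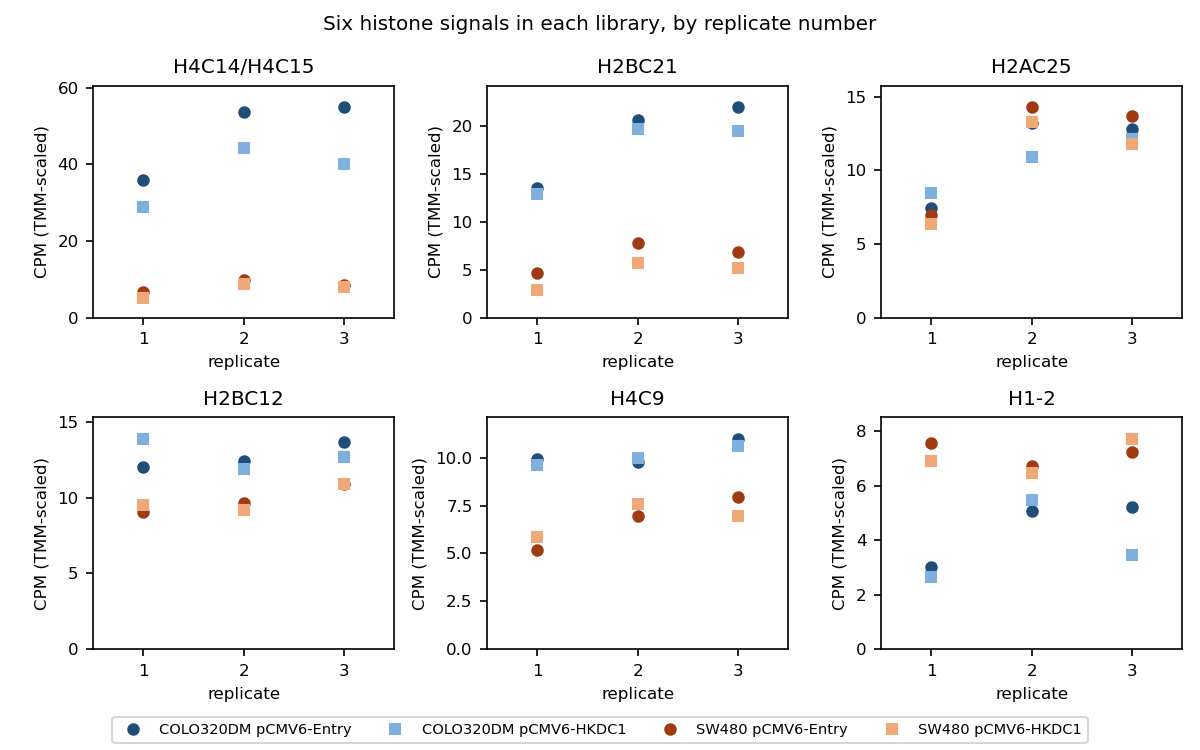
Points show the TMM-scaled CPM (y axis, from 0) of 6 histone signals in each library by replicate number (x axis), in the 4 groups. H4C14/H4C15, H2BC21 and H2AC25 are lowest in replicate 1 of every group, while H4C9 is lowest there in 3 groups and H2BC12 and H1-2 in 2 each.

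Genes that act on histone supply, and histones made outside S phase, also differed across the replicates. SLBP, the stem-loop binding protein that is made in S phase, was highest in replicate 1 in all 4 groups, with 75.6 CPM against 35.5 and 40.6 CPM in SW480 with empty vector. The 36 DNA replication genes summed to 4630 CPM in replicate 1 and 3240 and 3480 CPM in the others of that group, and to 3190 against 2830 and 2880 CPM in COLO320DM with empty vector. The replacement histone H2AZ1, which is expressed in cycling cells, was highest in replicate 1 throughout (349 against 245 and 283 CPM in SW480 with empty vector). H1-10, a replacement linker histone, was lowest there (70.2 against 139 and 134 CPM). The part of these differences in the members' values was not tested.

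Of the genes that make and process histone mRNA, none was called for the plasmid in either line, with or without the block: none of 11 for histone transcription and S-phase entry and none of 23 for 3′ end processing and decay (edgeR, with DESeq2 and limma-voom calling none either). At an unadjusted p under 0.05, the block gave 0 of the 11 in each line, and 1 of the 23 in COLO320DM and 3 in SW480. Over all 23684 genes tested, it gave 1290 in COLO320DM and 2360 in SW480. Without the block, edgeR, DESeq2 and limma-voom also called 0 of 36 DNA replication genes in SW480, and 0 of them had an unadjusted p under 0.05. With the block, 5 of the 36 rose in SW480, beside 0.165% of all genes called higher: the helicase subunit MCM4 (log2 fold change 0.28), the sliding clamp PCNA (0.24), UNG (0.31), GINS1 (0.28) and GINS2 (0.28). H1-10 fell in SW480 with the block (-0.29, SE 0.07, edgeR adjusted p = 0.0281), the 1 call among 12 tested replacement histones, of which none was called without the block by edgeR, DESeq2 or limma-voom. Between the lines with empty vector, 8 of the 23 processing genes were higher and 4 lower in SW480, beside 37.3% and 34.3% of all genes. SLBP was lower in SW480 (-1.08, SE 0.24, edgeR adjusted p = 0.00118), as was LSM11 (-0.71, SE 0.11). ZNF473 was higher in SW480, with 42.5, 40.6 and 40 CPM against 17.3, 15.5 and 14.1 CPM (1.39, SE 0.10, edgeR adjusted p = 4.81e-08). LSM10 was higher with empty vector by 0.29 (SE 0.12), and NPAT, the coactivator of histone gene transcription, was higher by 0.52 (SE 0.16, edgeR adjusted p = 0.0107). CASP8AP2, which works with NPAT, was not called (-0.10, SE 0.13). Among the histones that are made outside S phase, H3-3A (0.37) and H3-3B (0.63) were higher in SW480 and H2AZ1 (-0.47) lower, while H2AX, whose mRNA can end in either way, was not called (-0.25, SE 0.14). RMRP, an RNA without a tail, had 7 to 33 counts and was not called. Among histone chaperones, 7 of 24 were higher and 6 lower in SW480 with empty vector. The counts were 7 and 6 of 15 for the poly-A tail and cleavage machinery, and 11 and 6 of 36 for DNA replication, to be read against the same shares of all genes.

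By Pearson's r of log2 CPM over the 12 libraries, the signals most like H2BC12 were H4C9 (0.89), H4C14/H4C15 (0.87) and H3C14/H3C15 (0.86). These values describe the difference between the lines, since all libraries of a line share their cells. Within the 6 COLO320DM libraries they were 0.29, -0.15 and -0.01, and within the 6 SW480 libraries 0.58, 0.28 and -0.46.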

How the data were processed

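RNA selected on poly-T beads was sequenced from 12 libraries (4 groups of 3). The values are counts per gene, whole numbers deposited by the authors. HISAT2 2.1.0, limma and GRCh38 are named in the submitters' processing notes, with no role for any of them. The read counter, annotation release and strand setting are not given in the sources used here, so overlapping genes and copies cannot be told apart. The members, gene lists and tests were chosen with earlier results of these data known.

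One model with 4 group means was fitted over all libraries in edgeR 4.0.16 (R 4.3.3), with TMM scaling, filterByExpr (minimum count 10, minimum total 15; 23684 genes kept) and robust quasi-likelihood tests. Benjamini-Hochberg adjusted p-values under 0.05 over all genes tested were called. The scripts were tested on simulated data. The coefficient of variation between replicates was 0.157 (8 residual degrees of freedom), and 0.06 with the block (4). CPM are TMM-scaled. Per-kb values divide the CPM of the whole gene model by the deposited exon length, or by the GENCODE 29 coding length. SD is over 3 libraries.

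Deviations of same-numbered libraries correlated at 0.403, 0.134 and 0.119 in COLO320DM and 0.723, 0.436 and 0.313 in SW480. Each is over 0.1, so the numbers were taken as pairs, from the data and not from a label, and a fit with the number as a block within each line was run as an alternative. Replicates 2 and 3 correlated across numbers as well (0.15 and 0.16 in COLO320DM, 0.369 and 0.467 in SW480).

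Named members are every H1 gene, the 10 signals of highest mean CPM per kb, those called or of smallest p for the plasmid, the 5 largest changes per direction between the lines, those most like H2BC12, and listed factors of histone supply. Genes of the chromosome 6 stretch and its edges, and of the chromosome 1 span, were also named after their values were seen. Sequences come from GENCODE 29 transcripts and, for 62 members, from 66 RefSeq promoters (GRCh38.p14). The alternatives were DESeq2 1.42.0, limma-voom (limma 3.58.1), RLE size factors, no count filter, copies summed, only the groups compared, and each library left out. DESeq2 with the block, and all groups without replicate 1, were added after seeing the data.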

Additional observations from a re-analysis of the deposited data

How the results depend on the processing

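For the plasmid effect, 0 histone signals were called lower without pairing, and the replicate block gave 1 in COLO320DM and 1 in SW480. DESeq2 with the replicate block gave 1 lower signal in SW480, as did the fit without replicate 1 in every group. In COLO320DM each of these fits gave 0. DESeq2 with the block gave an adjusted p to only 2 member genes (1 signal) in COLO320DM and 9 in SW480, so most members were not tested by it. Leaving out a pair of the blocked fit gave 0 lower signals in COLO320DM and 0 to 1 in SW480. For SW480 against COLO320DM with empty vector, leaving out single libraries gave 5 to 13 signals called higher. The 5 came without replicate 1 of COLO320DM with empty vector. The other 206 values of this kind under the alternatives kept within 1.5 times of their count or kept their direction and call. No value reversed among called members or named genes. The block was not run for the comparisons of the lines, because replicate numbers cannot pair libraries of different lines. Among named genes, 36 values lost a call and 26 gained one under an alternative. Depth limits the low members: 21 of 67 genes were not tested, and a difference in them was not detectable at this depth unless given as counts.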
